A study of Mus musculus with 21 samples.

Results

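The genes described are 9 genes of the erythroid programme: Gata1, Klf1, Tal1, Epor, Hba-a1, Slc4a1, Ermap, Car1 and Car2. They were picked by symbol, as known red-cell genes, from the 20018 gene symbols that could be given to 55681 probes of a mouse array through RefSeq accessions. The picking rule used no measured value, but the genes were chosen with earlier results of these data known. A single probe stood for each of 7 of them; Car1 had 2 probes and Ermap 3, and there the probe with the highest mean over all arrays was used and the others served as a check.

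Red blood cells arise from multipotent progenitors under the transcription factors GATA1 and TAL1, which bind DNA together, and KLF1, which binds CACCC elements of globin and red-cell membrane genes. Erythropoietin acts through its receptor Epor on committed precursors, which then fill with haemoglobin, of which Hba-a1 encodes an alpha chain, and build a membrane rich in the anion exchanger Slc4a1 (band 3). Lymphoid cells are known to switch most of these genes off, while mast cells, basophils, eosinophils and megakaryocytes share Gata1 with red cells. The repressors Bach1 and Bach2 pair with small Maf proteins at Maf recognition elements, and globin genes are among the textbook targets of Bach1.

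Levels were compared in 3 experiments with 7 groups of 3 arrays each. Common lymphoid progenitors (CLPs) came from bone marrow of wild-type mice (WT) or of mice lacking both Bach1 and Bach2 (DD). Their RNA was pooled from mice, and cells with lineage markers, Ter119 of red cells among them, had been only partly depleted on beads before the sort. Multipotent progenitors (MPPs; Lin-, c-kit+, Sca-1+, Flt3mid) of WT mice, 4 mice pooled per experiment, were kept overnight in SCF (50 ng/ml), IL-3 (5 ng/ml) and IL-6 (10 ng/ml). They were then infected with a retrovirus carrying GFP alone (control vector) or Bach2 with GFP (Bach2 vector) and sorted for GFP after 2 days of multilineage culture. Other Bach2-vector cells spent 24 h in that culture and 6 days in B-lineage culture and were sorted for GFP and B220; this B220+ group had no control-vector counterpart, so vector, culture and sort differ together against the control vector. Follicular B cells of WT or Bach2-knockout (Bach2KO) mice were exposed for 24 h to 10 ug/ml anti-IgM, and the label names no sort gate. The sources used here do not state the mice's ages. Nothing in the labels says whether the 3 arrays of a group came from separate cultures or animals in each experiment, so p-values measure the spread between these samples.

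Each level is the log2 signal relative to the 75th percentile of its array, so 0 is a fairly bright spot and each unit is a doubling. Between 50.9% and 81.5% of gene spots were well above background on an array, the lowest shares being those of the follicular B cells (50.9% to 58.8%). The Bach2KO replicate 2 array was the dimmest of the series, with a 75th percentile signal of 97.3 against at most 357.5 in that experiment. Bach2 read -0.07, -1.01 and -0.09 in Bach2KO and 3.49, 3.06 and 3.55 in WT follicular B cells, and it fell there (limma adjusted p = 0.000918). In DD CLPs Bach2 lay 2.11 lower on the log2 scale than in WT (difference -2.11 ± 0.58, SE) without passing the test (adjusted p = 0.999), and Bach1 differed by -0.52 ± 0.45. With the Bach2 vector the Bach2 probe read -0.92, -2.03 and -2.57 against -3.87, -2.96 and -2.15 with the control vector, which overlap. The B220+ cells, which carry the Bach2 vector too, read -2.75, -2.49 and -4.10 (-0.12 ± 0.60 against the control vector). The labels do not say whether the vector insert covers the probe, so it does not check that label. The B220+ cells had Dntt at 5.41 to 5.67 and Ly6d at 2.66 to 3.83, both lymphoid progenitor genes. Pax5 (-6.07 to -5.63) and Ebf1, both B-lineage factors, stayed low, with Ebf1 well above background on only 1 of the 3 arrays. In CLPs, by contrast, Ebf1 read 0.70 to 2.34 (WT) and 0.99 to 1.58 (DD). Of the other lymphoid progenitor genes listed, Flt3 averaged 4.52 and Il7r 0.071 in the B220+ cells, and Vpreb1 -0.74, Igll1 -2.91, Rag2 -5.07 and Rag1 -6.18.

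The stretches just upstream of the start sites of 4 of the genes are shown because the factors that act on them, GATA1 and KLF1, are measured here themselves. Each holds the 200 bases before a start, 5′ to 3′ on the gene's strand, from RefSeq (GRCm38.p6). Capitals mark GATAA, the core bound by GATA factors, and CACCC, the core bound by KLF1, on either strand (TTATC and GGGTG on the other). Gata1 is at chrX:7967911-7968110 on the minus strand, Klf1 at chr8:84901782-84901981 on the plus strand, Epor at chr9:21963577-21963776 on the minus strand and Hba-a1 at chr11:32283472-32283671 on the plus strand.
Gata1: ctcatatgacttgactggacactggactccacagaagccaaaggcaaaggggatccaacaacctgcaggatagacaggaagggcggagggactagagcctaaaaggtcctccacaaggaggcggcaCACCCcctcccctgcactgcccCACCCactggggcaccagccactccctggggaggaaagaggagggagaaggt
Klf1: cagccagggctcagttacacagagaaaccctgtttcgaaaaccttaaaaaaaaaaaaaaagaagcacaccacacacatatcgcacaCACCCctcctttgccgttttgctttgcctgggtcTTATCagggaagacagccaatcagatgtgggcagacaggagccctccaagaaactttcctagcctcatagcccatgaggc
Epor: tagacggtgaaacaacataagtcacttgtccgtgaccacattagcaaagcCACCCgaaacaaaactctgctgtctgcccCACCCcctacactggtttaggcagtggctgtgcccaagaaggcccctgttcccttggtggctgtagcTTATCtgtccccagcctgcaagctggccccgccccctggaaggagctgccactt
Hba-a1: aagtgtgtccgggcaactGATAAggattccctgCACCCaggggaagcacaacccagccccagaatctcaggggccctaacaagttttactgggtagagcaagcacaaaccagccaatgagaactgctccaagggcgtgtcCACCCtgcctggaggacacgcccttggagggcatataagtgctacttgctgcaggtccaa
RefSeq windows of 300 bases (250 before and 50 after a start) were at hand for 6 of the 9 genes, 7 windows in all since Tal1 had 2. GATAA occurred in 5 of those 7 windows and in 25.4% of all 32851 mouse windows. CACCC occurred in 6 of the 7 and in 57.5% of all windows. The GATAA core began 80 bases before the start in Klf1, 54 in Epor, 67 in Ermap, 182 in Hba-a1 and 205 in Tal1, and none was found in the Gata1 window. The element TGAGTCA was in 0 of the 7 windows and in 5.2% of all. CANNTG, the E-box that TAL1 binds, was in 5 of the 7 and in 72.3% of all. These counts describe letters in short windows only.

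**Figure D1:**
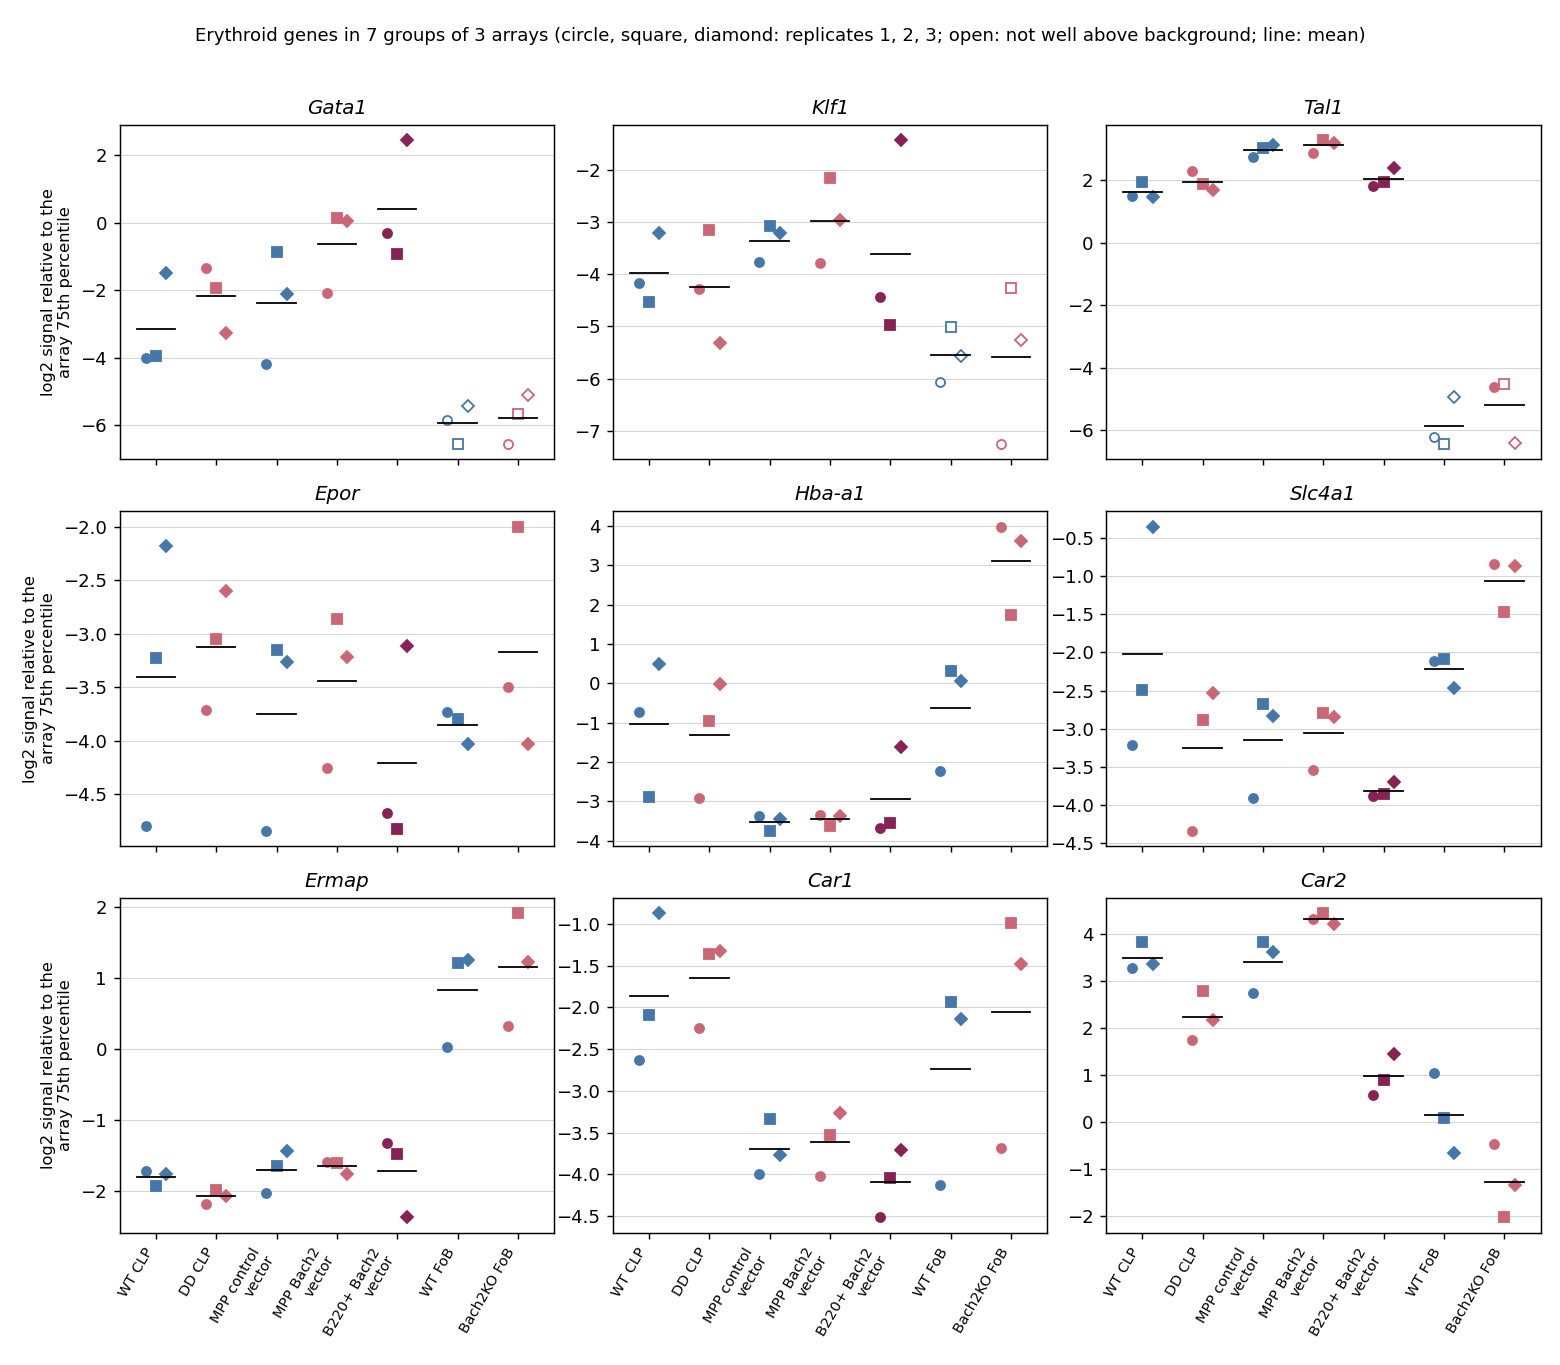
Levels of the 9 genes on all 21 arrays, 1 panel per gene, with the 7 groups on the horizontal axis and the log2 signal over each array's 75th percentile on the vertical axis; each panel has its own scale, symbols are replicates, open symbols are not well above background and bars are means of 3. Gata1, Klf1 and Tal1 have their lowest means in follicular B cells, though Klf1 arrays there (up to -4.26) overlap those of DD CLPs (down to -5.31). The lowest signal well above background was -5.34 to -3.34 on follicular B-cell arrays and -7.29 to -5.81 on the others, so a lower Klf1 level is not shown. Hba-a1 is highest in Bach2KO follicular B cells (1.74 to 3.99), and Car2 is highest in Bach2-vector MPPs (4.23 to 4.45).

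Without a block, between 0 and 2 of the 9 genes passed in each comparison. In DD against WT CLPs 0 of 9 passed, where 0.00607% of 16464 genes did (0.00607% higher, 0% lower). An unadjusted p under 0.05 was found there for 1 of 9 and for 619 of the 16464 genes. Groups did not overlap for 2 of 9 there, Car2 and Ermap, both lower, where 7.91% of genes were separate (4.93% higher, 2.98% lower). With the Bach2 vector 0 of 9 passed against the control vector, where 1.8% of 16991 genes did (1.07% higher, 0.724% lower). An unadjusted p under 0.05 was found there for 1 of 9 and for 1472 of the 16991 genes. Groups were separate for 1 of 9, Car2, higher, where 14.9% of genes were separate (7.66% higher, 7.29% lower).

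In B220+ cells Tal1 and Car2 fell, 2 of 9, in both comparisons, which share the B220+ arrays. Against the control vector 12.1% of genes passed (4.65% higher, 7.45% lower) and the groups were separate for 2 of 9 members, both lower, where 34.5% of genes were separate (11% higher, 23.5% lower). Against the Bach2 vector 6.17% of genes passed (2.01% higher, 4.16% lower) and the groups were separate for 3 of 9, Car2, Tal1 and Slc4a1, all lower, where 29.2% of genes were separate (7.46% higher, 21.7% lower). In Bach2KO follicular B cells 1 of 6 tested members passed, Hba-a1, higher, where 2.72% of 13073 genes did (2.21% higher, 0.513% lower). With the replicate number as a block 4 of 6 passed there, Hba-a1, Slc4a1 and Car1 higher and Car2 lower, where 22.8% of genes did (9.58% higher, 13.2% lower). Groups were separate there for 2 of 6, Hba-a1 and Slc4a1, both higher, where 18.7% of genes were separate (8.12% higher, 10.6% lower). The members' median differences were -0.26 in CLPs, 0.15 between vectors, -0.39 and -0.64 in the B220+ comparisons and 0.68 in follicular B cells, against 0.039, -0.021, -0.29, -0.25 and -0.16 over all genes tested.

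Of the transcription factors, Tal1, which is needed to form blood progenitors at all, was bright in every progenitor group and fell in the B220+ cells. It read 2.75, 3.03 and 3.13 in control-vector MPPs, 2.86, 3.30 and 3.21 in Bach2-vector MPPs and 1.83, 1.95 and 2.39 in the B220+ cells. All 3 B220+ arrays lay below all 6 arrays of the other MPP groups. The difference was -0.92 ± 0.25 (SE) on the log2 scale against the control vector, 1.89-fold lower (adjusted p = 0.0480), and -1.07 ± 0.25 against the Bach2 vector, 2.10-fold lower (adjusted p = 0.0425). Both calls were near the threshold. Against the control vector Tal1 no longer passed without control-vector replicate 2 (adjusted p = 0.159) or 3 (0.156) or without B220+ replicate 1 (0.142) or 2 (0.122), and against the Bach2 vector without Bach2-vector replicate 2 (0.148) or 3 (0.137) or without B220+ replicate 1 (0.133) or 2 (0.121). With the array median in place of the 75th percentile, which shifts all genes by 0.31 in both comparisons, the differences were -0.61 and -0.75 (adjusted p = 0.209 and 0.162). With the slide as a block they were -0.68 and -0.83 (adjusted p = 0.146 and 0.123), and within slide 1 -0.70 and -0.81, each against 1 array.

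In CLPs Tal1 read 1.50, 1.95 and 1.48 in WT and 2.30, 1.90 and 1.68 in DD, groups that overlap (0.32 ± 0.35, adjusted p = 0.999). In follicular B cells it was near background: 1 of 6 arrays, Bach2KO replicate 1 at -4.62, was well above it. The order of the group means ran from Bach2-vector and control-vector MPPs, which overlap, through B220+ cells and DD and WT CLPs, each overlapping the next, to follicular B cells far below. Arrays of different experiments were amplified differently, so that order was not tested.

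Gata1, the master regulator of red cells that also drives mast cells, eosinophils and megakaryocytes, varied widely between arrays of a group, with SDs of 0.57 to 1.80 (n = 3) over the 7 groups, and its progenitor groups overlapped each neighbour in the order of their means. With the control vector it read -4.18, -0.86 and -2.09, with the Bach2 vector -2.09, 0.14 and 0.06, and in the B220+ cells -0.29, -0.93 and 2.46. The Bach2-vector array was the higher in 3 of 3 same-numbered pairs, yet the groups overlap. The difference was 1.75 ± 1.08 (SE; adjusted p = 0.952). Against the control vector the B220+ cells differed by 2.79 ± 1.08, a 6.94-fold higher mean that did not pass (adjusted p = 0.124). With the slide as a block that difference was 4.43 and passed (adjusted p = 0.0343); within slide 1, which held all 3 B220+ arrays but only control-vector replicate 1, the lowest of its group for Gata1, it was 4.59. Without B220+ replicate 3 it was 1.77 (adjusted p = 0.251).

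B220+ replicate 3 was also the highest array of the 9 for Klf1 and for 3 genes that mast cells and basophils express. There Gata2 read 3.42, against 0.54 and -0.35 on the other B220+ arrays, and the mast-cell protease Cpa3 5.64 against 3.76 and 2.75. Ms4a2, a chain of the IgE receptor, read 1.01 against -0.87 and -2.34. These 3 genes were chosen after their values were seen. Of 14 tested mast-cell, basophil and eosinophil genes, 4 rose in B220+ cells against the control vector: Hdc, which makes histamine (3.84 ± 0.30), Prg2, the eosinophil major basic protein (8.95 ± 0.87), the basophil protease Prss34 (6.93 ± 0.84) and the interleukin-5 receptor Il5ra (2.99 ± 0.56). The list's median difference was 2.53, against -0.29 over all genes tested. Of the 14 genes 10 had a higher mean and 4 a lower one than with the control vector. The lower ones were Gzmb, Tpsb2, Mcpt4 and Cma1. Gata2 is not on this list. Its summed signal relative to the 75th percentile ran from 71.5 to 242.0 in the B220+ cells, from 31.9 to 65.0 with the Bach2 vector and from 9.28 to 38.3 with the control vector, with 11 to 14, 10 to 14 and 12 to 14 of the 14 genes well above background. Its part in the Gata1 values was not tested.

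In CLPs Gata1 read -4.00, -3.94 and -1.48 in WT and -1.33, -1.93 and -3.26 in DD. The groups overlap through WT replicate 3 and DD replicate 3, and the difference of 0.96 ± 0.76 did not pass (adjusted p = 0.999). Without WT replicate 3 it was 1.80, still not passing. Gata1 was not well above background on any follicular B-cell array (0 of 6) and was not tested there.

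Klf1, the activator of adult globin and red-cell membrane genes, was dim in every group. It read -4.17, -4.53 and -3.20 in WT CLPs, -4.28, -3.15 and -5.31 in DD CLPs, -3.77, -3.08 and -3.22 in control-vector MPPs and -3.79, -2.16 and -2.96 in Bach2-vector MPPs. In the B220+ cells replicate 3 read -1.42 and the others -4.43 and -4.98. All the groups of an experiment overlap, and no difference passed: -0.28 ± 0.60 in CLPs, 0.38 ± 0.83 between vectors, and -0.26 ± 0.83 and -0.64 ± 0.83 in the B220+ comparisons. The sign against the control vector turned to 0.056 when arrays were scaled to their median and to 0.36 with the slide as a block. In follicular B cells Klf1 was at background on 6 of 6 arrays.

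**Figure D2:**
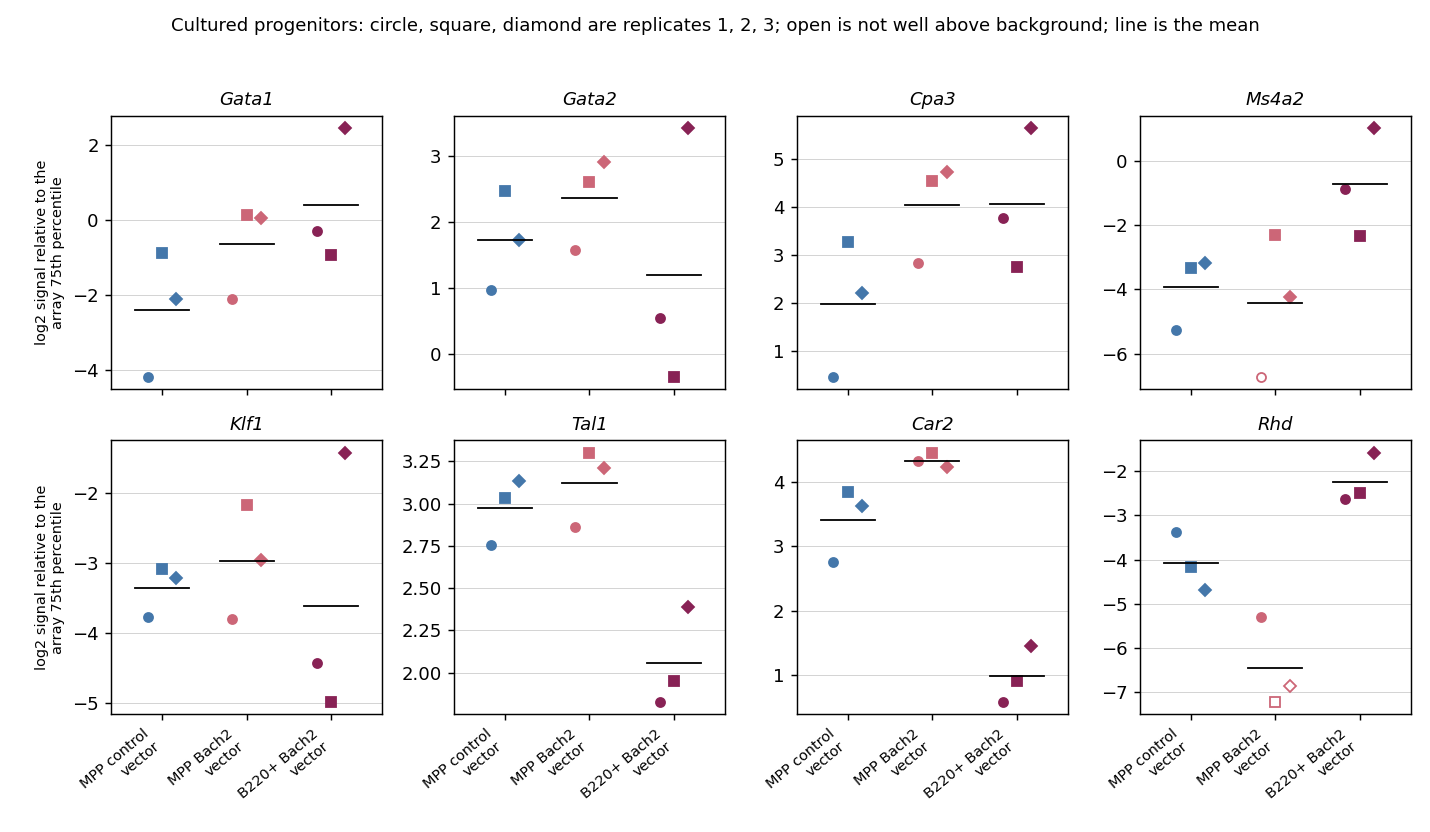
Levels in the cultured progenitors of Gata1, Klf1, Tal1, Car2, the blood-group gene Rhd and 3 genes of the mast-cell programme (Gata2, Cpa3, Ms4a2), as log2 signal over each array's 75th percentile, with replicates as symbols, open where not well above background, and means of 3 as bars. B220+ replicate 3 (diamond) is the top array for Gata1 (2.46), Gata2 (3.42), Cpa3 (5.64), Ms4a2 (1.01) and Klf1 (-1.42), whereas Car2 and Tal1 are low on all 3 B220+ arrays.

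Of the other 18 erythroid regulators on the list with a probe, 0 of 17 tested passed in CLPs and 0 of 18 between vectors, where Bcl11a, which silences fetal globin, had the smallest p (1.26 ± 0.30, adjusted p = 0.0945). Bcl11a rose in B220+ cells against the control vector (1.50 ± 0.30, adjusted p = 0.0130), 1 of 18. Against the Bach2 vector 0 of 18 passed. The list's medians in these 4 comparisons were 0.090, -0.060, 0.033 and 0.15, against 0.039, -0.021, -0.29 and -0.25 over all genes tested.

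The receptor Epor was dim and similar throughout, with group means between -4.20 and -3.12. In WT CLPs it read -4.79, -3.23 and -2.18 and in DD CLPs -3.71, -3.05 and -2.61. Control-vector MPPs read -4.84, -3.15 and -3.26 and Bach2-vector MPPs -4.25, -2.86 and -3.22. Replicate 1 was the lowest array of each of these groups. The B220+ cells read -4.67, -4.82 and -3.12, WT follicular B cells -3.73, -3.79 and -4.03, and Bach2KO ones -3.49, -1.9998 and -4.03. Every neighbour in the order of the 7 means overlapped the next, and the differences ran from -0.76 ± 0.61 (B220+ against the Bach2 vector) to 0.68 ± 0.50 (Bach2KO), none of which passed. The highest Bach2KO value came from replicate 2, the dim array.

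Hba-a1 was the member that passed the main test in follicular B cells. It read -2.24, 0.31 and 0.05 in WT and 3.99, 1.74 and 3.61 in Bach2KO cells. All 3 Bach2KO arrays lay above all 3 WT arrays, and the widest gap was between the replicate 1 arrays. Hba-a1 rose by 3.74 ± 0.77 (SE) on the log2 scale, 13.3-fold (adjusted p = 0.0391). The difference was 6.22 within slide 1, which held the replicate 1 pair, and 2.50 within slide 2. Without WT replicate 1 it was 2.93 (adjusted p = 0.0566) and without Bach2KO replicate 3 it was 3.49 (adjusted p = 0.186). It also missed the threshold with normexp background correction (3.06, adjusted p = 0.0593), median centring (3.51, 0.0534) and no filter on signal (3.74, 0.0708). Same-numbered arrays deviated together in this experiment. With the replicate number as a block Hba-a1 passed, as did Car1 (0.68, adjusted p = 0.0267), Car2 (-1.44, adjusted p = 0.000733) and Slc4a1 (1.16, adjusted p = 0.00178), 4 of 6 members among 2980 called genes, against 356 without the block.

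Other genes of haemoglobin synthesis rose with Hba-a1. Of 6 tested genes of the globin and haem list (Hba-a1 is not on it), 3 rose, with a list median of 3.15 against -0.16 over all genes tested. Hba-a2, the near-identical twin of Hba-a1, read -0.28, 2.31 and 2.07 in WT and 5.83, 3.81 and 5.90 in Bach2KO cells (3.82 ± 0.77, adjusted p = 0.0366). Signals of the pair cannot be counted as separate, since either transcript may bind either probe. The beta globin Hbb-bt read 1.17, 1.21 and 0.75 in WT and 3.80, 2.84 and 3.95 in Bach2KO cells (2.49 ± 0.38, adjusted p = 0.00868). Alas2, the first enzyme of haem synthesis in red cells, read -0.97, -2.42 and -0.89 in Bach2KO cells. It was well above background on only 1 of 3 WT arrays, at -4.01, so the size of its difference (3.93 ± 0.66) is uncertain. The Bach2KO arrays, where Alas2 was high, met the signal filter by themselves. Its call rests on that group, and its p-value is not given. For each of these 3 genes, as for Hba-a1, Bach2KO replicate 2 was the lowest array of its group.

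Most regulators of the programme were at background or did not pass. Gata1, Klf1 and Gata2 were not well above background on any of the 6 follicular B-cell arrays, and neither were the membrane genes Epb42, Rhag and Ank1, named after their values were seen. Of 15 tested erythroid regulators 1 rose, Nfe2, a bZIP factor of red cells and megakaryocytes that also pairs with small Maf proteins (1.59 ± 0.31, adjusted p = 0.0275), well above background on 2 of 3 WT arrays. The median of that list was -0.41. Of 11 tested red-cell membrane and blood-group genes 0 passed at the adjusted threshold, with a median of -0.26. An unadjusted p under 0.05 was found for 3 of the 11 and for 1441 of all 13073 genes. Gypc (-1.62 ± 0.50) and Xk (-1.18 ± 0.39) had the smallest p.

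Genes of other blood cells differed between the same arrays. Of 11 tested granulocyte and monocyte genes 10 had a higher mean in Bach2KO cells, with a median difference of 2.81, and 0 passed. An unadjusted p under 0.05 was found for 7 of the 11 and for 1441 of all 13073 genes. S100a8, a neutrophil protein, read -2.89, 1.06 and -0.22 in WT and 0.58, 3.21 and 3.33 in Bach2KO cells. The summed signal of that list ran from 73.9 to 232.8 in WT and from 136.9 to 340.8 in Bach2KO cells, with 8 to 12 and 11 to 12 of 14 genes well above background. The platelet chemokine Pf4 was not well above background in WT and was at least 4.02-fold higher in Bach2KO cells. It entered the test only through the Bach2KO arrays, where it was high, so its p-value is not given. Of 11 B-cell genes 10 had lower means, 1 of which, Cr2, fell. The part of these genes in the Hba-a1 result was not tested. In bulk RNA, more cells of a type and more RNA per cell cannot be told apart.

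**Figure D3:**
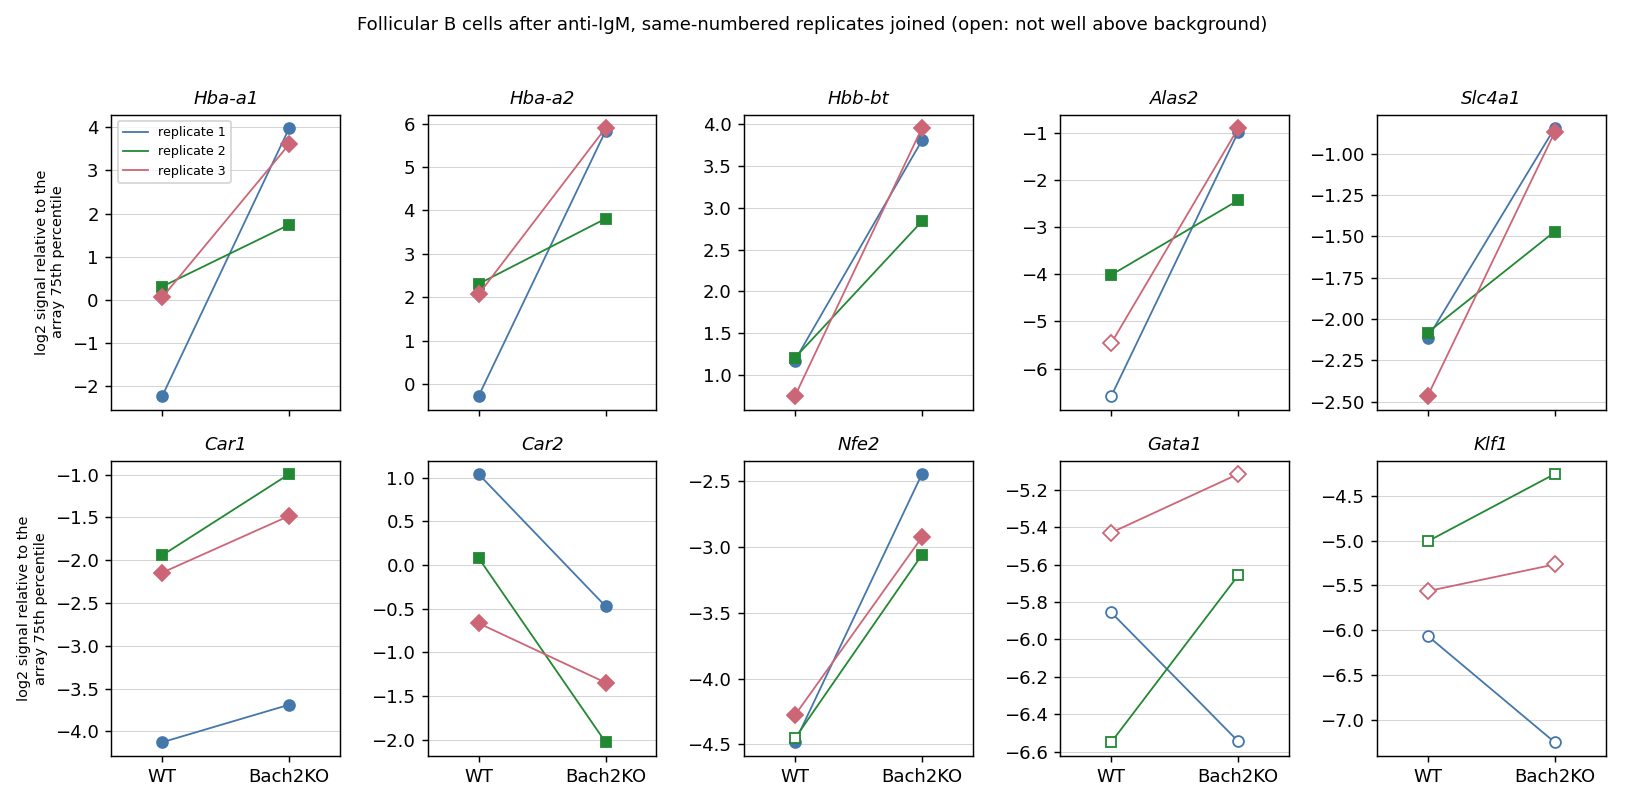
Levels in follicular B cells after anti-IgM, WT on the left and Bach2KO on the right of each panel, as log2 signal over each array's 75th percentile, with lines joining same-numbered replicates and open symbols for arrays not well above background. Hba-a1, Hba-a2, Hbb-bt, Alas2, Slc4a1, Car1 and Nfe2 go up in 3 of 3 pairs and Car2 goes down in 3 of 3, while Gata1 and Klf1 stay at background.

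In the progenitors Hba-a1 was low or erratic. With the control vector it read -3.39, -3.75 and -3.46, with the Bach2 vector -3.36, -3.64 and -3.39 and in the B220+ cells -3.68, -3.56 and -1.63. The vector groups overlap (0.073 ± 0.49), and in the B220+ group only replicate 3 stood higher. The globin and haem list gave 0 passes of 6 in each MPP comparison, with medians of 0.27 between vectors and -0.72 and -0.78 in the B220+ comparisons. Hbb-bt read 2.51, 4.50 and 4.64 with the control vector and 0.96, 1.25 and 3.08 in the B220+ cells, groups that overlap (-2.12 ± 0.70, adjusted p = 0.0823).

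In CLPs Hba-a1 spread over more than 3 log2 units within WT, at -0.74, -2.90 and 0.50, and nearly as far within DD, at -2.93, -0.96 and -0.03. The groups overlap (-0.26 ± 0.96, adjusted p = 0.999), and the difference was 0.51 without WT replicate 3. Summed over the globin and haem list, signal was 40.7 on that array against 21.1 and 7.51 on the other WT arrays. Over the red-cell membrane list it was 62.2 against 74.96 and 58.3, and over the granulocyte list 162 against 144 and 162. Among single genes of these lists, Epb42, a red-cell membrane protein, was well above background on 2 of 3 WT arrays, replicates 1 and 3. It read -3.92 on replicate 3 and -8.19, not above background, on replicate 2, and no value was kept on replicate 1. S100a9 read 3.96 on WT replicate 3 against -6.21 and -6.33 on the other WT arrays. These genes were chosen after their values were seen. DD replicate 2 was the highest DD array for S100a9 (2.40). Il7r, a defining gene of CLPs, was at 4.14 to 5.28 on all 6. Their part in the spread was not tested.

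Slc4a1, the anion exchanger that anchors the red-cell cytoskeleton, was higher in every Bach2KO array than in any WT follicular B-cell array without passing the main test. It read -2.12, -2.08 and -2.47 in WT and -0.84, -1.47 and -0.87 in Bach2KO cells. The difference was 1.16 ± 0.32, 2.24-fold (adjusted p = 0.124), and was 1.27 within slide 1 and 1.10 within slide 2. It passed with the replicate number as a block, as given above, and with the slide as a block (adjusted p = 0.0172). In 15 of the 17 alternatives the call stayed as in the main test. Over all 17 the difference ran from 0.72 to 1.37 and the adjusted p from 0.00178 to 0.825.

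In CLPs Slc4a1 read -3.22, -2.49 and -0.35 in WT and -4.34, -2.88 and -2.53 in DD. DD was lower in 3 of 3 same-numbered pairs, but WT replicate 3 held much of the difference of -1.23 ± 0.77 (adjusted p = 0.999), which was -0.40 without it. With the control vector it read -3.91, -2.68 and -2.84, with the Bach2 vector -3.54, -2.80 and -2.85 and in the B220+ cells -3.89, -3.86 and -3.69. The B220+ arrays lay below all 3 Bach2-vector arrays (-0.75 ± 0.36, adjusted p = 0.238). Against the control vector the difference was -0.67 ± 0.36 (adjusted p = 0.243), and -1.06 (adjusted p = 0.0498) without control-vector replicate 1, while within slide 1 it was 0.10, against that array alone.

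Ermap, an erythroid membrane protein of the butyrophilin-like family that carries a human blood group, had its highest levels in follicular B cells by its main probe. It read 0.03, 1.22 and 1.26 in WT and 0.32, 1.91 and 1.23 in Bach2KO cells (0.32 ± 0.50, adjusted p = 0.828), and between -2.38 and -1.32 on every CLP and MPP array. The other probes gave other orders. Probe 2 was below the well-above-background call on all 6 follicular B-cell arrays and averaged -3.29 in WT and -3.19 in DD CLPs. Probe 3 averaged -4.25 in WT and -3.21 in Bach2KO follicular B cells and -4.23 and -3.83 in WT and DD CLPs. In CLPs the main probe read -1.73, -1.93 and -1.77 in WT and -2.19, -1.99 and -2.07 in DD, groups that do not overlap (-0.27 ± 0.31, adjusted p = 0.999), while probes 2 and 3 gave 0.098 and 0.40, the other sign.

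Of the other red-cell membrane and blood-group genes 2 of 17 tested passed in each B220+ comparison, where 12.1% and 6.17% of all genes did. The glucose transporter Slc2a1 fell against the control vector (-1.56 ± 0.24, adjusted p = 0.00374) and the mitochondrial iron importer Slc25a37 rose (1.22 ± 0.30, adjusted p = 0.0317). Against the Bach2 vector Slc2a1 fell (-1.01 ± 0.24) and Rhd, the blood-group Rh gene, rose (4.21 ± 0.55, adjusted p = 0.00306), where only 1 of 3 Bach2-vector arrays was well above background for Rhd. Of this list 0 of 17 passed between vectors and 0 of 20 in CLPs.

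Car1, the carbonic anhydrase of red cells and colon, had no difference that passed without a block. It read -2.63, -2.09 and -0.87 in WT and -2.25, -1.37 and -1.33 in DD CLPs (0.22 ± 0.52, adjusted p = 0.999). In MPPs it read -3.99, -3.34 and -3.77 in control-vector MPPs, -4.02, -3.53 and -3.27 in Bach2-vector MPPs and -4.51, -4.05 and -3.71 in the B220+ cells, which all overlap. In follicular B cells the replicate 1 arrays were the low ones, -4.13 in WT and -3.69 in Bach2KO, against -1.94 and -2.15 and -0.99 and -1.48 on the others. The Bach2KO array was higher in 3 of 3 pairs (0.68 ± 0.78 without the block, adjusted p = 0.774). On 0 of these 6 arrays did its second probe reach well above background.

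Car2, a fast and widely expressed carbonic anhydrase of red cells and their progenitors, had the lowest adjusted p of the set, for a fall in the B220+ cells. It read 2.75, 3.85 and 3.62 in control-vector MPPs, 4.32, 4.45 and 4.23 in Bach2-vector MPPs and 0.58, 0.91 and 1.44 in the B220+ cells. The 3 groups did not overlap each other. In the B220+ cells Car2 fell by 2.43 ± 0.34 on the log2 scale against the control vector, 5.39-fold (adjusted p = 0.00260), and by 3.36 ± 0.34 against the Bach2 vector, 10.2-fold (adjusted p = 0.000951). Both calls held in all 17 alternatives, with adjusted p of 0.00103 to 0.0143 and of 0.000357 to 0.00720. Of these, the deposited series-wide values and the second brightest probe left Car2's own values unchanged, since it has 1 probe, and could not move its differences. With the slide as a block the differences were -2.10 and -3.02, and within slide 1 they were -1.78 and -3.34, each against a single array of the other group.

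Car2 also had a higher mean with the Bach2 vector and a lower mean in DD CLPs and Bach2KO follicular B cells, but these 3 differences did not pass without a block. All 3 Bach2-vector arrays lay above the control-vector arrays (0.93 ± 0.34, 1.90-fold, adjusted p = 0.381), by 1.57 within slide 1 and 0.60 within slide 2. In DD CLPs it read 1.76, 2.79 and 2.19 against 3.28, 3.85 and 3.36 in WT, again without overlap (-1.25 ± 0.39, 2.38-fold lower, adjusted p = 0.999). In follicular B cells Car2 read 1.04, 0.08 and -0.67 in WT and -0.47, -2.03 and -1.35 in Bach2KO, lower in 3 of 3 pairs though the groups overlap (-1.44 ± 0.53, 2.71-fold lower, adjusted p = 0.316). It passed there with the replicate block, as given above, and with the slide as a block (adjusted p = 0.0132), and was -1.52 within slide 1 and -1.40 within slide 2. In 15 of the 17 alternatives the follicular call stayed as in the main test. Over all 17 the difference ran from -1.85 to -0.86 and the adjusted p from 0.000733 to 0.704.

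Across groups Car2 ran from Bach2-vector MPPs, which stood above all others, through WT CLPs, control-vector MPPs and DD CLPs, which overlap in turn, to B220+ cells and WT and Bach2KO follicular B cells, which also overlap in turn. Of 12 tested members of the carbonic anhydrase family other than Car1 and Car2, Car12 (-2.45 ± 0.32) and Car13 (-4.45 ± 0.65) fell in B220+ cells against the control vector and Car15 rose (1.67 ± 0.29). Against the Bach2 vector Car12 (-1.89 ± 0.32), Car13 (-3.23 ± 0.65) and Car3 (-1.43 ± 0.31) fell. The family medians were -0.70 and -0.55. In CLPs 0 of 10, between vectors 0 of 12 and in follicular B cells 0 of 8 passed; in the last, Car15 had the smallest p (-1.31 ± 0.32, adjusted p = 0.0801).

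**Figure D4:**
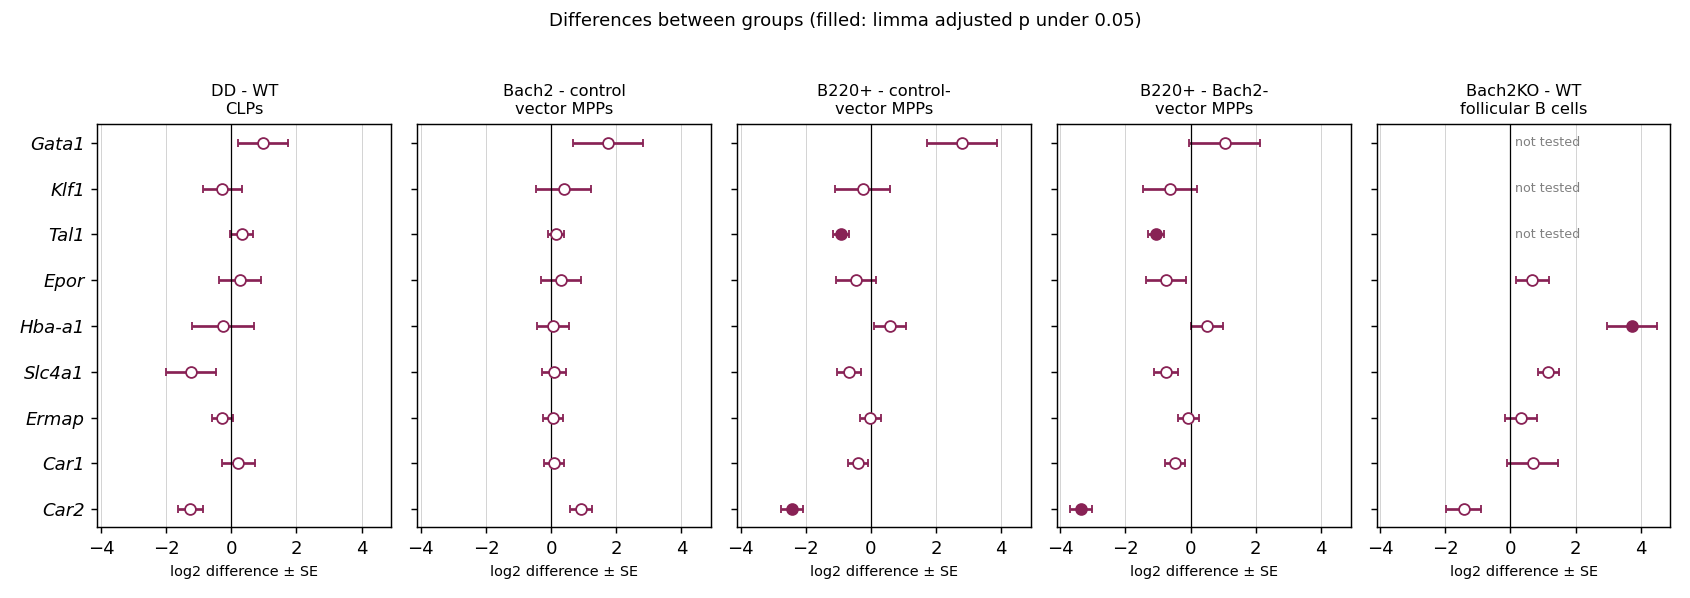
Differences of the 9 genes in the 5 comparisons, as log2 difference with its standard error on a shared horizontal axis; filled points passed limma's adjusted p under 0.05, and genes not tested in follicular B cells are marked. Car2 lies left of 0 in DD CLPs, in both B220+ comparisons and in Bach2KO follicular B cells and right of 0 with the Bach2 vector, and Hba-a1 in Bach2KO follicular B cells is the largest rise (3.74).

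The group with the highest mean differed between members: Bach2-vector MPPs for Tal1, B220+ cells for Gata1, Bach2KO follicular B cells for Hba-a1. Each member was then set beside non-members only, so no other member could be its nearest gene. Named genes well above background on at least 10 of 21 arrays were ranked by the root-mean-square difference between centred profiles of the 7 group means. The genes most like Gata1 were Rin2 (0.42), Fam3b (0.44) and Prss16 (0.55), and those most like Tal1 were Akr1c13 (0.43), Pimreg (0.44) and Serpinb1c (0.44). Hba-a1 was nearest to Klrb1a (0.45), Sh3bgr (0.65) and Ccdc151 (0.72), and Car2 to Arhgap6 (0.60), Chn2 (0.67) and Prickle1 (0.67). Klf1 was nearest to Hdac2 (0.15), Epor to Krt24 (0.12), Car1 to Lsmem1 (0.18), Slc4a1 to Plag1 (0.21) and Ermap to Cyp46a1 (0.12). These values rest on 7 means and describe likeness only. They are not scaled to a member's own range of means, which was 1.08 for Epor and 2.62 for Klf1 but 8.98 for Tal1. A smaller value for 1 member than for another is therefore not a closer likeness. For Gata1 and Klf1 the follicular B-cell means were background values.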

How the data were processed

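Single-colour Agilent arrays were read from 21 scanner files. Per the file headers, Feature Extraction 10.7.3.1 made the processed spot intensity values; version 9.1 is the one in the submitters' processing notes. The deposited series-wide values were the same intensity values. From the deposited intensity, log2 minus the array's 75th percentile was computed here. Control and outlier spots were left out, spots of a probe averaged, and 26413 probes named through RefSeq accessions.

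Genes with a probe well above background on 3 or more arrays of an experiment, and 2 or more values in each group, were tested with limma 3.58.1 in R 4.3.3 (with the data.table package, version 1.17.8) and Benjamini-Hochberg adjustment over all genes tested. The threshold was an adjusted p of 0.05. All 9 MPP arrays entered 1 fit, and its 3 comparisons share arrays. A bound ("at least") sets the bright mean against the lowest signal well above background. Python 3.11.15, pandas 2.3.3, numpy 2.4.6 and matplotlib 3.10.9 were also used. The fit was tested on simulated data.

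The 9 genes, the 11 further lists and the rule for naming genes (all 9 genes everywhere; in each list up to 4 genes with the smallest p that passed, otherwise up to 2; other genes are named as examples) were chosen with earlier results of these data known. Same-numbered arrays correlated in their deviations from group means at 0.43, 0.39 and 0.22 in CLPs, 0.65, 0.41 and 0.30 between vectors and 0.86, 0.72 and 0.53 in follicular B cells, all over 0.1, so numbers were taken to pair them there. The highest correlations between different numbers were 0.072, 0.31 and 0.50. Between vectors the 0.30 of replicate 3 was not above that 0.31, so pairing is not established for it. The main test used no block in any comparison, and results with the replicate block are given where they changed a call. Numbers were not taken to pair arrays in the B220+ comparisons (-0.060 to 0.12 and 0.084 to 0.12). In CLPs slide and replicate number coincide; in follicular B cells replicate 1 lay on slide 1 and the others on slide 2. Alternatives were normexp background correction, median centring, quantile normalization, other filters and probes, a variance trend, the replicate and slide as blocks, and each array left out. Normexp used the median spot signal, because the files read here hold no mean signal column. The number of arrays limits the precision. Some genes of the lists are not reported here by name.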

Additional observations from a re-analysis of the deposited data

How the results depend on the processing

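Of 9 members, 0 passed in CLPs and 0 between vectors under all alternatives run. In B220+ cells against the control vector 2 passed; 1 did with median centring, quantile normalization, no filter on signal and the second brightest probe, and between 1 and 3 with single arrays left out. Against the Bach2 vector 2 passed; 1 did with median centring, quantile normalization, no filter and the slide as a block, and between 1 and 2 with single arrays left out. In follicular B cells 1 passed; 0 did with normexp, median centring and no filter, 3 with the slide as a block, 4 with the replicate block, and between 0 and 1 with single arrays left out. The cause was not tested. The replicate block changed no other member's call.

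Genes called in follicular B cells numbered 356, and 123 with normexp, 144 with median centring, 2980 with the replicate block, 1196 with the slide block and 161 to 441 with single arrays left out (217 without WT replicate 2, 194 without WT replicate 3, 161 without Bach2KO replicate 3); 81.2% of the 356 were higher, against 42.0% and 57.1% under the replicate and slide blocks. In CLPs 1 gene was called, 0 with median centring, quantile normalization and either block, and 0 to 16 with arrays left out. Leaving out arrays gave 106 to 199 genes between vectors against 305, 1034 to 2636 in B220+ cells against the control vector against 2056, and 443 to 1710 against the Bach2 vector against 1048. Median centring moved all genes by 0.31 in both B220+ comparisons and by -0.23 in follicular B cells, and with it 985 B220+ calls were higher and 658 lower against the control vector (790 and 1266 without it) and 461 and 386 against the Bach2 vector (341 and 707). Quantile normalization gave 980 and 1037, and 450 and 601.

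Of 712 member values under alternatives 42 turned sign, none in a comparison where that member had passed the main test. In B220+ cells against the control vector Klf1 was 0.015 with normexp, 0.056 with median centring and 0.36 with the slide block, Epor 0.49 with the slide block, Car1 0.073 with the second probe, and Ermap 0.30 with median centring, 0.012 with quantile normalization, 0.084 with the second probe and 0.12 with the slide block. Against the Bach2 vector Ermap was 0.25 with median centring, 0.20 with the second probe and 0.061 with the slide block, and Epor 0.19 with the slide block. With the second probe Ermap was 0.098 in CLPs and -0.11 between vectors.

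With single arrays left out, the lowest and highest values were as follows.
In CLPs the range was Epor -0.42 to 0.89, Car1 -0.17 to 0.71, Klf1 -0.83 to 0.25 and Hba-a1 -1.19 to 0.55. Between vectors the range was Epor -0.24 to 0.71, Car1 -0.076 to 0.30, Slc4a1 -0.30 to 0.32, Ermap -0.11 to 0.19, Hba-a1 -0.035 to 0.16 and Klf1 -0.020 to 0.79. In B220+ cells against the control vector the range was Ermap -0.22 to 0.31, Klf1 -1.35 to 0.43 and Hba-a1 -0.085 to 0.94. In B220+ cells against the Bach2 vector the range was Klf1 -1.73 to 0.046, Hba-a1 -0.16 to 0.87 and Ermap -0.27 to 0.25. In follicular B cells the range was Car1 -0.010 to 1.50 and Ermap -0.083 to 0.74.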

Other observations

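Marker lists of other blood cells, read beside the erythroid genes, gave these counts. Of 15 tested megakaryocyte and platelet genes 1 fell with the Bach2 vector, the chemokine Ppbp, at least 12.2-fold. Among the MPP groups Ppbp was well above background only with the control vector and entered the tests through those arrays alone. Its calls, here and in B220+ cells, rest on that group, and its p-values are not given. In B220+ cells Gp9, a platelet receptor subunit, rose (1.68 ± 0.38) and Pf4 (-6.96 ± 0.69) and Ppbp fell against the control vector, 3 of 15; against the Bach2 vector Gp9 rose and Pf4 fell, 2 of 15. Of 8 lymphoid progenitor genes 4 rose in B220+ cells against the control vector, Dntt (7.13 ± 0.25), Ly6d, Il7r and Flt3, and 3 against the Bach2 vector, and 1 of 5 fell in Bach2KO follicular B cells, Flt3 (-1.68 ± 0.31).

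Of 7 stem and multipotent progenitor genes 4 fell in B220+ cells against the control vector, Hlf (-3.05 ± 0.35), Mycn, Procr and Meis1, and 3 against the Bach2 vector. Bach2KO follicular B cells had 1 of 3 higher, Ly6a (3.17 ± 0.29, limma adjusted p = 0.000826). Of 7 T-cell genes 2 rose in both B220+ comparisons, Cd3g, at least 7.58-fold against the control vector and at least 7.76-fold against the Bach2 vector, and Cd3d. Among the MPP groups Cd3g was well above background only in the B220+ cells and entered the tests through those arrays alone, so its calls rest on that group. Of 9 tested B-cell genes 2 rose in both, Blnk and Cd22. Granulocyte and monocyte genes gave 2 higher and 1 lower of 14 against the control vector and 3 higher and 1 lower against the Bach2 vector, among them Camp (4.84 ± 0.74 and 5.90 ± 0.74) and Ngp, which was well above background on 1 of 3 arrays of either vector group. Mast-cell, basophil and eosinophil genes gave 3 of 14 higher against the Bach2 vector and 1 of 14 higher between vectors (Hdc, 2.40 ± 0.30). In follicular B cells 1 of 5 was higher (Prg2) and 1 lower (Il5ra). Prg2 was well above background on only 1 of 3 WT arrays there, so its call rests on the Bach2KO arrays, where it was high. None of the 11 lists had a gene that passed in CLPs. At an unadjusted p under 0.05 by limma, the granulocyte list had 2 of 13, the stem-cell list 2 of 8 and the B-cell list 1 of 10. The other lists had 0, and all genes tested had 619 of 16464.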
